A study of Mus musculus with 9 samples.

Results

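The genes described here are ribosome biogenesis factors, the proteins that transcribe ribosomal RNA, process and modify it, and build it into the 2 ribosomal subunits. They were chosen as a list of 45 gene symbols, and 44 of the 45 were matched among the 24819 symbols of the table. Noc2l, a 60S factor, was matched under no symbol or synonym and is not analysed here. All 44 passed the filter on low values. Their RNA was measured in E14 cells, a line of mouse embryonic stem cells, grown on gelatin in 3 media with 3 libraries each. ES stands for the common serum-based medium of these cells, which contains leukemia inhibitory factor (LIF). 2iLIF stands for N2B27, a defined medium without serum, to which LIF and the inhibitors called 2i were added. EPSCM is expanded potential stem cell medium, whose components the labels do not list. No other treatment is named, and cultures were stably kept in their medium. Every value comes from this 1 line. Whether the libraries of a medium are separate cultures is not stated, so p-values measure the spread between these libraries alone, which may be technical.

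A ribosome is assembled mainly in the nucleolus. RNA polymerase I transcribes a long precursor of ribosomal RNA. Small nucleolar RNPs (snoRNPs, complexes of guide RNAs with proteins) then modify and help fold the precursor. The small subunit processome forms on it as it is made, and cuts and helicases release the parts that become the 40S and 60S subunits. Genes of this machinery are well-known targets of MYC, and embryonic stem cells, which divide quickly, express them at high levels.

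The 9 libraries summed to 546636 to 600728 FPKM, a fragment count scaled to transcript length and to the library's total, so that levels can be compared between genes. The table holds no read counts, so the depth of each library is unknown and no counting interval is given. Within each medium 1 library stood apart from the other two: ES replicate 1, 2iLIF replicate 1 and EPSCM replicate 2. Over all tested genes, log2 values of the close pair in each medium correlated at 0.996 to 0.997, while pairs that held the library standing apart correlated at 0.9855 to 0.9902. No tested gene had the same value above 0 in 2 libraries of a medium. The embryonic stem cell markers Pou5f1, Sox2, Nanog, Zfp42 and Esrrb were present in every library, and their summed level was 2552 to 2983 FPKM in ES, 2255 to 2584 in 2iLIF and 1391 to 1614 in EPSCM. They did not move alike. In EPSCM against ES the log2 differences were -1.11 for Pou5f1, -1.70 for Zfp42, -0.51 for Esrrb, -0.28 for Sox2 and -0.14 for Nanog. Sox2 alone had a higher mean in EPSCM than in 2iLIF, with a difference of 0.21. Of 6 primitive endoderm markers 4 were tested, and the sum over all 6 was 5.53 to 6.18, 2.43 to 2.78 and 8.65 to 9.55 FPKM in ES, 2iLIF and EPSCM. Of 6 trophoblast markers 3 were tested, with sums of 18.7 to 21.2, 26.9 to 30.0 and 41.0 to 47.6 FPKM, most of it Tfap2c, and Elf5 stayed under 0.1 FPKM. Among them Eomes rose in EPSCM against ES by 1.40 ± 0.07 (SE), adjusted p = 2.87e-07, and Cdx2 rose in 2iLIF against ES by 1.80 ± 0.05 (SE), adjusted p = 9.09e-09. Gata3 and Hand1 had means of 0.613 and 0.866 FPKM in EPSCM and 0.0331 and 0.139 in ES, and were not tested. Of the endoderm markers Gata4, Gata6 and Dab2 rose in EPSCM against ES, with differences of 1.21, 1.32 and 0.57, and Sox7 fell with a difference of -1.88. Of 7 fibroblast markers 2 were tested, Thy1 and Pdgfrb, with sums over all 7 of 15.0 to 17.6, 3.75 to 4.18 and 10.9 to 13.6 FPKM, and Col3a1, Dcn and Lum were at or near 0. In EPSCM against ES Pdgfrb rose by 1.56 ± 0.10 (SE), adjusted p = 8.35e-07, and Thy1 fell with a difference of -1.13 ± 0.09 (SE), adjusted p = 3.71e-06. The part of these shifts in the results below was not tested.

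The factors as a group were lowest in EPSCM. In EPSCM against ES, 38 of 44 fell and none rose, counting as changed a gene whose adjusted p in limma was below 0.05 and whose log2 difference was 0.5 or more in size. Over all 12330 tested genes 20.7% fell and 28.6% rose by the same limits. The median difference of the 44 was -0.96 on the log2(FPKM + 1) scale, beside 0.09 over all tested genes, and all 44 were below 0. In bulk RNA, fewer cells of a type and less RNA per cell cannot be told apart. With the size limit at 1, 21 of 44 fell and none rose, where 7.97% of all genes fell and 11.7% rose. At an unadjusted p under 0.05, no factor was higher. With quantile normalization 31 of 44 fell, and 7 factors missed the size limit: Fbl (-0.25), Pes1 (-0.33), Polr1c (-0.39), Nop56 (-0.40), Mrto4 (-0.44), Tsr1 (-0.45) and Ubtf (-0.47).

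The other comparisons showed smaller differences in the same direction. In EPSCM against 2iLIF 20 of 44 fell and none rose, beside 18.6% and 23.5% of all tested genes, and none was higher at an unadjusted p under 0.05. The median difference was -0.51, beside 0.03 over all genes. With the size limit at 1, 2 fell, Nop2 and Heatr1, and none rose, where 5.91% of all genes fell and 10.1% rose. In 2iLIF against ES 13 of 44 fell and none rose, beside 19.1% and 21.0% of all genes, and the median difference was -0.37 beside 0.03. The share of called factors was nearer the background here than in the other comparisons. Polr1a and Tsr1 were higher in 2iLIF than in ES at an unadjusted p under 0.05, both by less than 0.5. With the size limit at 1 Ddx18 alone fell and none rose, where 7.12% of all genes fell and 7.62% rose. The 3 comparisons share libraries, so they are not independent of each other.

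**Figure D1:**
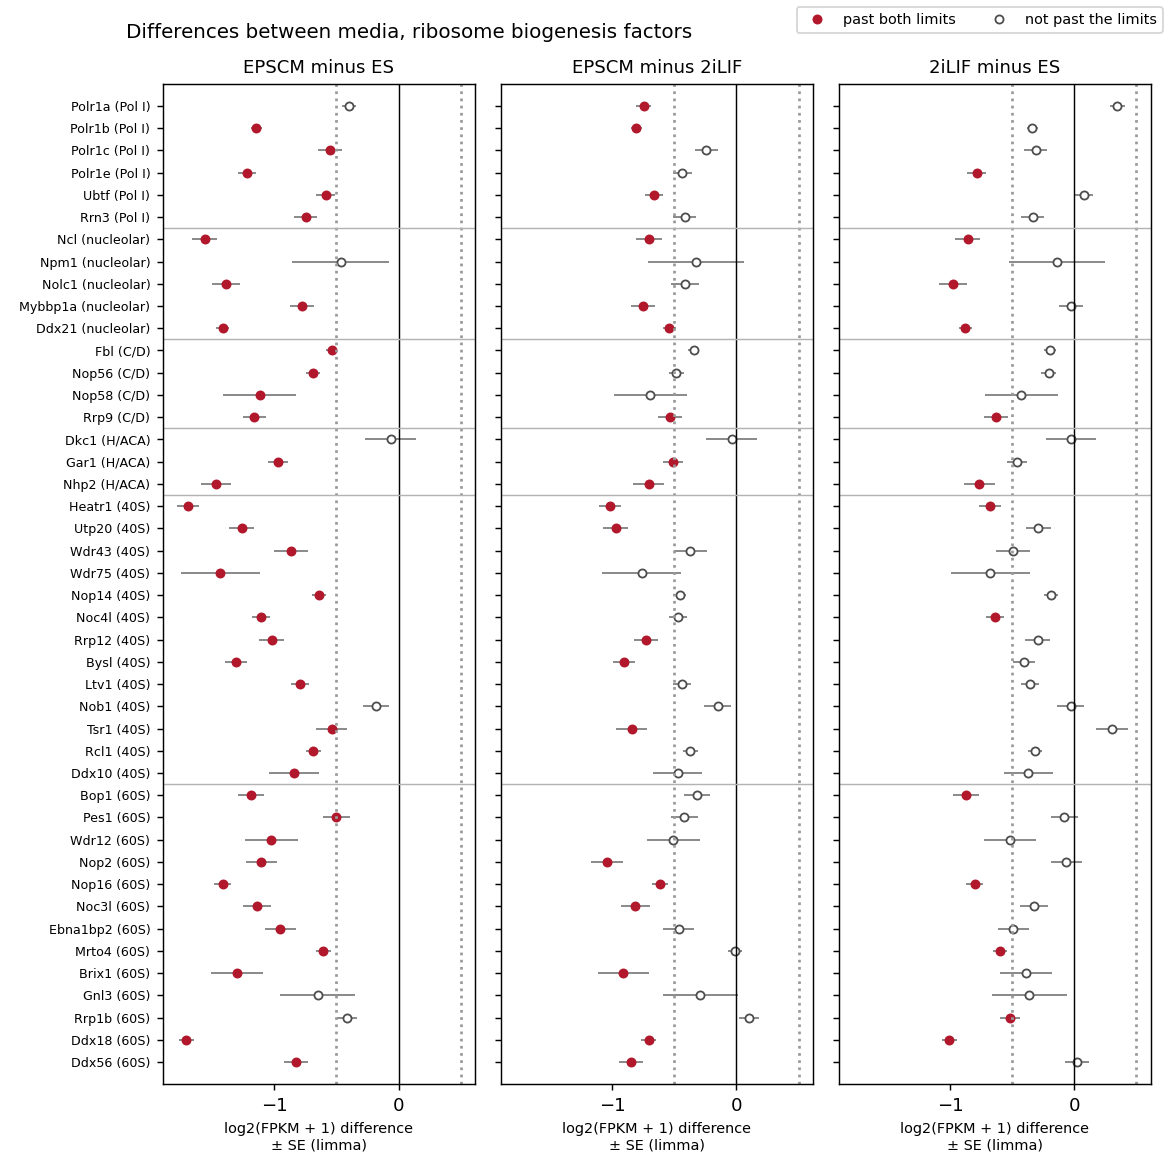
Difference in log2(FPKM + 1) with its standard error from limma for each of the 44 ribosome biogenesis factors (rows, grouped by role), in 3 comparisons of media. Filled points passed an adjusted p of 0.05 and a log2 difference of 0.5 (dotted lines): 38, 20 and 13 factors, all of them lower.

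Mean levels followed the order ES above 2iLIF above EPSCM in 39 of the 44 factors, and 18.3% of all tested genes had that order. The exceptions were Polr1a, Ubtf, Tsr1, Rrp1b and Ddx56. In 25 of 44 factors all 9 libraries kept the order with no overlap between media, beside 8.03% of all genes. All EPSCM libraries lay below the other 6 in 34 factors, beside 19.5% of all genes. EPSCM and ES did not overlap in 40 factors (32.1% of all genes had EPSCM below ES). The 4 whose ranges overlapped were Npm1, Dkc1, Nob1 and Gnl3. EPSCM lay below 2iLIF without overlap in 34 factors (33.2% of all genes) and 2iLIF below ES in 27 (34.0%).

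Each library can be summarised by the median, over the 44 factors, of its level as a percent of the ES mean. This median was 98.1% to 103% in the ES libraries, 71.5% to 78.6% in the 2iLIF libraries and 48.2% to 53.7% in the EPSCM libraries. The 3 media did not overlap. Added up, the factors held 0.857% to 1.07% of all FPKM in ES libraries, 0.687% to 0.857% in 2iLIF and 0.477% to 0.619% in EPSCM. Npm1 is the largest term of these sums, and the libraries that stood apart gave the lowest value in each medium. Without Npm1 and Ncl, the sum was 3819 to 3963 FPKM in ES, 2965 to 3010 in 2iLIF and 2087 to 2108 in EPSCM, so that the spread within a medium became small beside the steps between media.

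**Figure D2:**
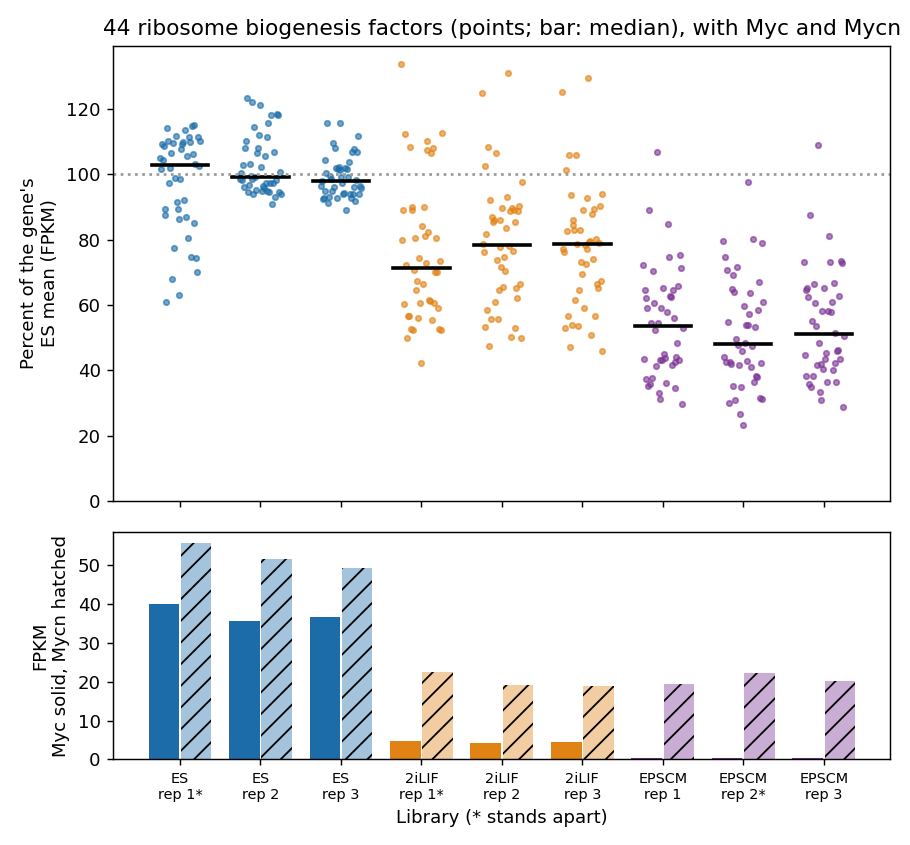
Level of each of the 44 factors (points) in each of the 9 libraries, as a percent of its mean in ES, with the median of the 44 per library as a bar, above the FPKM of Myc (solid bars) and Mycn (hatched bars). An asterisk marks the libraries that stood apart. The medians were 98.1% to 103% in ES, 71.5% to 78.6% in 2iLIF and 48.2% to 53.7% in EPSCM.

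Levels per transcript length differed widely among the factors. The median factor had 68.1 FPKM in ES, 54.8 in 2iLIF and 37.9 in EPSCM. Npm1 was the most abundant in every medium, with means of 1286, 1163 and 939 FPKM. Polr1e was the lowest in every medium, with means of 15.95, 8.84 and 6.28 FPKM. Ncl ranked second in ES and 2iLIF at 508 and 279.8 FPKM, while Fbl ranked second in EPSCM at 181 FPKM.

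**Figure D3:**
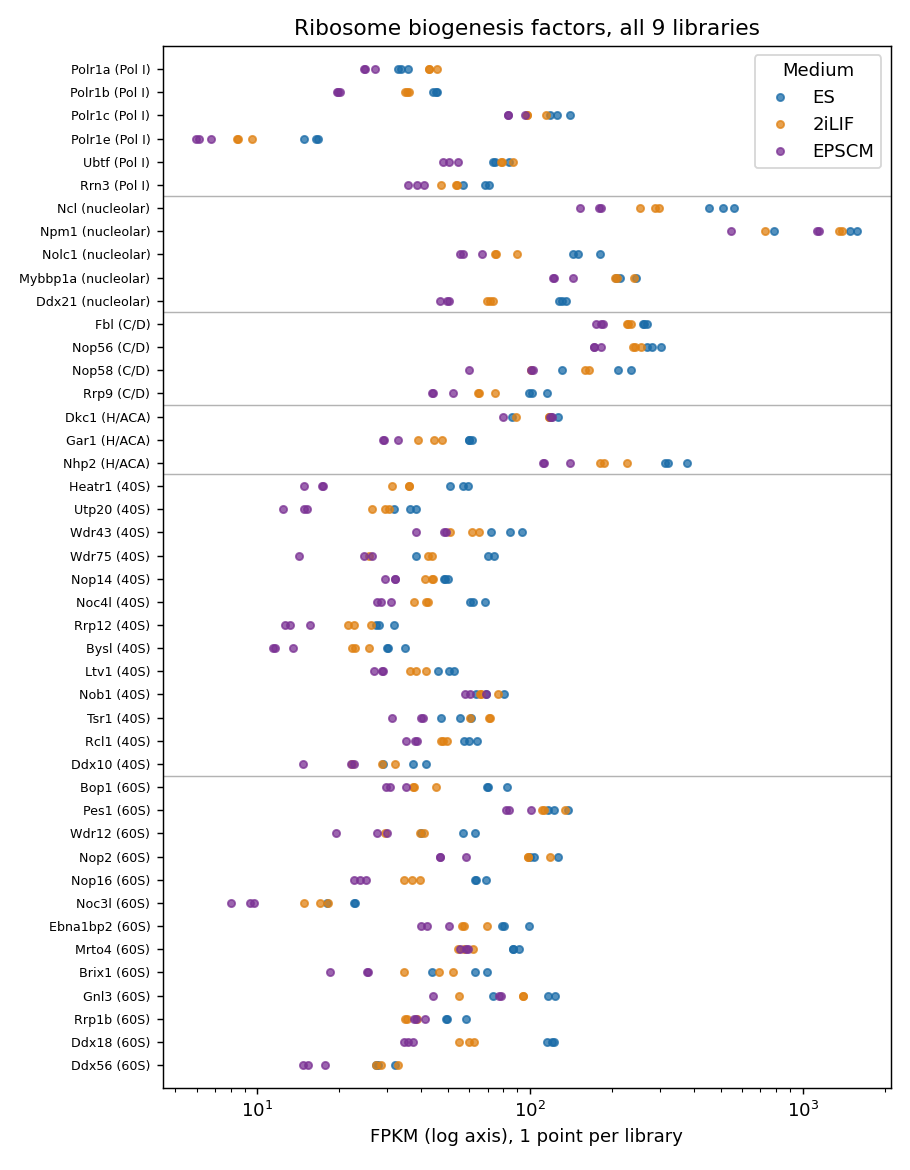
FPKM (log axis) of the 44 factors by role in the 9 libraries, coloured by medium. Points of EPSCM lie to the left of all ES points in 40 of the 44 factors.

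Among the 6 genes of RNA polymerase I and its transcription factors, 5 fell in EPSCM against ES, 3 fell against 2iLIF, and 1 fell in 2iLIF against ES. Of all tested genes 20.7%, 18.6% and 19.1% fell in these comparisons, the shares to set beside each group below as well. The 1 of 6, or 16.7%, was not above that background. Polr1e encodes a subunit that helps the polymerase to initiate. It measured 16.7, 16.4 and 14.8 FPKM in ES, 9.61, 8.48 and 8.44 FPKM in 2iLIF and 5.97, 6.77 and 6.10 FPKM in EPSCM, in the order of replicates 1 to 3 as for all genes below. The 3 media did not overlap, and the EPSCM mean was 39.4% of the ES mean. The log2 difference was -1.22 ± 0.08 (SE), adjusted p = 8.78e-07. From ES to 2iLIF the difference was -0.78 (adjusted p = 1.91e-05). Polr1b, the second-largest subunit of the enzyme, measured 45.7, 45.1 and 44.04 FPKM in ES, 35.9, 35.4 and 34.7 FPKM in 2iLIF and 19.6, 19.8 and 20.0 FPKM in EPSCM. It fell from 2iLIF to EPSCM (-0.80 ± 0.04 (SE), adjusted p = 4.56e-07), and from ES to 2iLIF the difference of -0.34 stayed under the limit of size. Whether the steps of a gene differ from each other was not tested, here or below. Rrn3, the factor that makes the polymerase competent to start transcription, measured 57.1, 70.5 and 68.2 FPKM in ES, 47.2, 53.4 and 53.9 FPKM in 2iLIF and 38.5, 35.7 and 40.8 FPKM in EPSCM. EPSCM was below ES in every library, and it fell with a difference of -0.75 ± 0.09 (SE), adjusted p = 7.95e-05.

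Polr1a and Ubtf had higher means in 2iLIF than in ES, unlike the other 4. Polr1a, the catalytic subunit, measured 35.7, 33.6 and 32.8 FPKM in ES, 45.6, 42.6 and 42.6 FPKM in 2iLIF and 24.7, 27.1 and 24.96 FPKM in EPSCM. The 2iLIF libraries were all the highest and the EPSCM libraries all the lowest. It fell from 2iLIF to EPSCM with a difference of -0.75 ± 0.06 (SE), adjusted p = 4.87e-06. The differences of -0.40 in EPSCM against ES and 0.35 in 2iLIF against ES had adjusted p-values of 2.50e-04 and 7.27e-04 but were under the limit of size. Ubtf, which binds ribosomal DNA and opens it for the polymerase, had the same order, with means of 77.2, 81.4 and 51.0 FPKM in ES, 2iLIF and EPSCM. It fell in EPSCM against 2iLIF with a difference of -0.66 ± 0.08 (SE), adjusted p = 5.10e-05, and its ES and 2iLIF libraries overlapped. Polr1c, a subunit shared with RNA polymerase III, had a difference of -0.55 ± 0.09 (SE), adjusted p = 5.53e-04 in EPSCM against ES, and of -0.49 without ES replicate 1, which is under the limit.

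The 5 abundant nucleolar proteins and regulators of ribosomal RNA transcription gave 4 falls in EPSCM against ES, 3 against 2iLIF and 3 in 2iLIF against ES. Ncl, nucleolin, binds the ribosomal RNA precursor and is among the most abundant nucleolar proteins. It measured 454, 560.2 and 511 FPKM in ES, 254, 298 and 288 FPKM in 2iLIF and 179, 153 and 182 FPKM in EPSCM. The media did not overlap, and the EPSCM mean was 33.7% of that in ES (-1.56 ± 0.10 (SE), adjusted p = 1.22e-06). Ddx21, a helicase linking RNA polymerase I transcription to processing, measured 128, 136 and 131 FPKM in ES, 69.6, 73.4 and 71.2 FPKM in 2iLIF and 49.5, 46.7 and 50.4 FPKM in EPSCM. It fell at both steps, with a difference of -0.87 ± 0.05 (SE), adjusted p = 7.48e-07 from ES to 2iLIF and with a difference of -0.54 ± 0.05 (SE), adjusted p = 1.54e-05 from 2iLIF to EPSCM. With quantile normalization the latter was -0.49, under the limit. Nolc1, a chaperone of snoRNPs, measured 180.3, 149.7 and 144 FPKM in ES, 89.4, 74.9 and 74.6 FPKM in 2iLIF and 56.7, 66.6 and 55.3 FPKM in EPSCM. Its step from ES to 2iLIF was -0.98 ± 0.11 (SE), adjusted p = 5.96e-05, while that from 2iLIF to EPSCM, -0.41, was under the limit of size. Mybbp1a, a nucleolar regulator of ribosomal DNA transcription, passed at the other step. It differed by -0.03 from ES to 2iLIF (adjusted p = 0.821) and fell by 0.75 from 2iLIF to EPSCM (adjusted p = 1.29e-04).

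Npm1, nucleophosmin, a histone chaperone that shapes the nucleolus, did not pass the test. It measured 785, 1587 and 1487 FPKM in ES, 728, 1395 and 1364 FPKM in 2iLIF and 1145, 546 and 1126 FPKM in EPSCM. The lowest library of each medium was the one that stood apart, and ES replicate 1 lay among the EPSCM libraries. The difference in EPSCM against ES was -0.46 ± 0.39 (SE), adjusted p = 0.306, a standard error about as large as the difference. With the 3 libraries that stood apart as a covariate it was -0.46 (adjusted p = 3.53e-07), under the limit of size. That covariate was found in the values of these same libraries, so p-values with it, here and below, may be too small. Npm1 is known to have processed pseudogenes, which may share reads with it, and whether they do here was not tested.

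Box C/D snoRNPs mostly guide 2′-O-methylation of ribosomal RNA, and all 4 of their proteins among the members fell in EPSCM against ES. In EPSCM against 2iLIF and in 2iLIF against ES 1 of the 4 fell, Rrp9 in both. That is 25%, beside 18.6% and 19.1% of all tested genes. Rrp9, which binds the U3 snoRNP, measured 116, 99.4 and 102 FPKM in ES, 74.6, 64.3 and 65.1 FPKM in 2iLIF and 43.8, 52.4 and 44.1 FPKM in EPSCM. The media did not overlap and the difference in EPSCM against ES was -1.16 ± 0.10 (SE), adjusted p = 5.05e-06. Against 2iLIF it was -0.53, close to the limit, and -0.46 without 2iLIF replicate 1, -0.49 without EPSCM replicate 1 and -0.49 without EPSCM replicate 3, each under it. Nop58, a core scaffold protein, measured 131, 235 and 210.4 FPKM in ES, 101, 165 and 159.6 FPKM in 2iLIF and 101, 59.7 and 103 FPKM in EPSCM. The spread within a medium was wide, and the difference from ES was -1.12 ± 0.29 (SE), adjusted p = 0.00718. Against 2iLIF its difference of -0.69 had an adjusted p of 0.062, and it passed without 2iLIF replicate 1, at -0.92, and with the libraries that stood apart as a covariate, at -0.69 (adjusted p = 7.19e-08). Leaving out a library that stood apart from 1 medium alone makes the compared media unequal in such libraries, here and below. Nop56, the paired scaffold protein, measured 302, 279 and 268 FPKM in ES, 254, 242 and 239 FPKM in 2iLIF and 172, 182 and 172 FPKM in EPSCM. It fell in EPSCM against ES with a difference of -0.69 ± 0.06 (SE), adjusted p = 6.82e-06. Fbl, fibrillarin, the methyltransferase of these particles, had the smallest difference of the 4, -0.54 ± 0.05 (SE), adjusted p = 7.10e-06. Against 2iLIF Nop56 and Fbl differed by -0.48 and -0.34, under the limit of size.

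Of the 3 members that are proteins of the box H/ACA snoRNPs, which guide pseudouridylation, 2 fell in EPSCM against ES and against 2iLIF, and 1 in 2iLIF against ES. Nhp2, a core protein, measured 376, 321 and 312 FPKM in ES, 227, 188 and 180.1 FPKM in 2iLIF and 112, 139.7 and 112 FPKM in EPSCM. It fell at each step, and its EPSCM mean was 36.1% of the ES mean (-1.47 ± 0.12 (SE), adjusted p = 5.61e-06). Gar1, another core protein, measured 59.7, 59.9 and 61.5 FPKM in ES, 39.0, 44.5 and 47.6 FPKM in 2iLIF and 32.8, 28.8 and 29.3 FPKM in EPSCM. It fell in EPSCM against ES with a difference of -0.97 ± 0.08 (SE), adjusted p = 5.14e-06. Its difference against 2iLIF, -0.51, was at the limit. It came to -0.50 without 2iLIF replicate 2, -0.45 without 2iLIF replicate 3, -0.48 without EPSCM replicate 2 and -0.49 without EPSCM replicate 3, all under it. Dkc1, dyskerin, the pseudouridine synthase itself, measured 85.9, 127 and 119.7 FPKM in ES, 89.1, 118 and 117 FPKM in 2iLIF and 118, 79.5 and 121 FPKM in EPSCM. The 3 media overlapped, and its difference in EPSCM against ES was -0.06 ± 0.20 (SE), adjusted p = 0.788, the smallest of the 44 factors.

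Of the 13 factors of the small subunit processome and of 40S maturation, 12 fell in EPSCM against ES, 5 against 2iLIF and 2 in 2iLIF against ES. The last share, 15.4%, was not above the 19.1% of all tested genes. Heatr1, a large scaffold protein of the processome that is also needed for ribosomal RNA transcription, measured 51.1, 59.4 and 56.7 FPKM in ES, 31.3, 36.1 and 36.1 FPKM in 2iLIF and 17.4, 14.9 and 17.3 FPKM in EPSCM. The media did not overlap, and the EPSCM mean was 29.7% of the ES mean, the lowest share among the 44 factors. Its differences were -1.69 ± 0.09 (SE), adjusted p = 3.10e-07, against ES and -1.02 ± 0.09 (SE), adjusted p = 8.67e-06, against 2iLIF. Wdr75, a processome subunit, measured 38.3, 73.8 and 70.5 FPKM in ES, 25.8, 43.7 and 42.4 FPKM in 2iLIF and 26.3, 14.3 and 24.6 FPKM in EPSCM. EPSCM lay below ES in every library (-1.43 ± 0.32 (SE), adjusted p = 0.00295). Its differences against 2iLIF and of 2iLIF against ES, -0.76 and -0.67, had adjusted p-values of 0.0605 and 0.0911. The first passed without 2iLIF replicate 1 (-0.9998), and without ES replicate 1 the second was -0.97 and passed. With the libraries that stood apart as a covariate both passed at the same size, with adjusted p-values of 6.69e-08 and 1.79e-07. Bysl, bystin, which acts in late 40S maturation, measured 34.8, 30.3 and 29.8 FPKM in ES, 25.7, 22.3 and 22.9 FPKM in 2iLIF and 11.5, 13.5 and 11.6 FPKM in EPSCM. It fell with a difference of -0.90 ± 0.09 (SE), adjusted p = 2.10e-05, against 2iLIF, and its difference from ES to 2iLIF was -0.40.

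Tsr1 had a higher mean in 2iLIF than in ES, and Nob1 did not pass in any comparison. Tsr1, a late 40S assembly factor that resembles a translation GTPase, measured 47.4, 60.8 and 55.5 FPKM in ES, 60.2, 71.6 and 70.7 FPKM in 2iLIF and 40.7, 31.3 and 39.999 FPKM in EPSCM. The EPSCM libraries were all the lowest, and it fell in EPSCM against 2iLIF with a difference of -0.84 ± 0.13 (SE), adjusted p = 3.09e-04. Its difference against ES, -0.54, came to -0.46 without ES replicate 2 and to -0.42 without EPSCM replicate 2, both under the limit. Its difference in 2iLIF against ES was 0.30 ± 0.13 (SE), adjusted p = 0.0598. Nob1, the endonuclease that makes the final cut of 18S ribosomal RNA, measured 80.4, 69.0 and 63.2 FPKM in ES, 76.2, 65.9 and 65.7 FPKM in 2iLIF and 60.2, 69.2 and 57.6 FPKM in EPSCM. Its libraries overlapped between all media, and the difference in EPSCM against ES was -0.18 ± 0.11 (SE), adjusted p = 0.156. The other 8 factors, Utp20, Wdr43, Nop14, Noc4l, Rrp12, Ltv1, Rcl1 and Ddx10, all fell in EPSCM against ES, with differences from -1.26 for Utp20 to -0.64 for Nop14.

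Of the 13 factors of 60S assembly, 11 fell in EPSCM against ES, 6 against 2iLIF and 5 in 2iLIF against ES. Ddx18, a DEAD-box helicase, measured 123, 121 and 115 FPKM in ES, 62.5, 59.8 and 55.0 FPKM in 2iLIF and 35.6, 37.4 and 34.6 FPKM in EPSCM. The media did not overlap, the EPSCM mean was 30.0% of the ES mean, and the difference of -1.71 ± 0.06 (SE), adjusted p = 4.79e-08, was the largest of the 44 factors. It fell at both steps, with a difference of -1.01 ± 0.06 (SE), adjusted p = 9.46e-07 from ES to 2iLIF and with a difference of -0.70 ± 0.06 (SE), adjusted p = 8.57e-06 from 2iLIF to EPSCM. Nop16, a nucleolar 60S assembly factor, measured 69.3, 63.5 and 62.8 FPKM in ES, 39.5, 34.6 and 37.0 FPKM in 2iLIF and 22.6, 24.97 and 23.9 FPKM in EPSCM. It also fell at both steps, with a difference of -0.80 ± 0.07 (SE), adjusted p = 8.31e-06 and -0.61 ± 0.07 (SE), adjusted p = 4.28e-05. Brix1, which acts early in 60S assembly, measured 43.7, 69.6 and 62.7 FPKM in ES, 34.6, 52.1 and 46.4 FPKM in 2iLIF and 25.3, 18.5 and 25.5 FPKM in EPSCM. It fell with a difference of -1.30 ± 0.21 (SE), adjusted p = 4.09e-04, against ES. Its difference from ES to 2iLIF was -0.39 (adjusted p = 0.129), and without ES replicate 1 it was -0.58 and passed.

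Bop1, Pes1 and Wdr12 form the PeBoW complex, which is needed to process the precursor of 28S ribosomal RNA, and all 3 subunits fell in EPSCM against ES. Their differences were -1.19 ± 0.10 (SE), adjusted p = 7.51e-06, for Bop1, -1.02 ± 0.21 (SE), adjusted p = 0.00187, for Wdr12 and -0.50 ± 0.11 (SE), adjusted p = 0.00256, for Pes1. Pes1 lay at the limit and came to -0.43 without ES replicate 1, -0.44 without EPSCM replicate 1 and -0.46 without EPSCM replicate 3. Bop1 fell from ES to 2iLIF, with a difference of -0.87 (adjusted p = 7.38e-05), and its difference from 2iLIF to EPSCM was -0.32. Wdr12 did not pass in either other comparison. It differed by -0.51 against 2iLIF and by -0.52 in 2iLIF against ES (adjusted p = 0.0588 and 0.0551). With the libraries that stood apart as a covariate it passed in both at the same size (adjusted p = 4.18e-06 and 3.69e-06).

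Several other 60S factors passed the test at 1 step and not at the other. Nop2, the methyltransferase of 28S ribosomal RNA, fell in EPSCM against 2iLIF with a difference of -1.04 ± 0.13 (SE), adjusted p = 7.37e-05, the largest difference of the 44 in that comparison, and differed by -0.06 from ES to 2iLIF. Ddx56, a helicase, fell against 2iLIF with a difference of -0.85 ± 0.10 (SE), adjusted p = 5.12e-05 and differed by 0.02 from ES to 2iLIF. Mrto4, also a factor of 60S assembly, passed at the other step. It fell from ES to 2iLIF with a difference of -0.60 ± 0.06 (SE), adjusted p = 2.10e-05 and differed by -0.01 from 2iLIF to EPSCM. Rrp1b, a nucleolar protein of the 60S pathway, measured 58.5, 49.6 and 49.3 FPKM in ES, 38.5, 34.9 and 35.4 FPKM in 2iLIF and 37.4, 41.4 and 38.2 FPKM in EPSCM. Its EPSCM and 2iLIF libraries overlapped, and it was the sole factor with an EPSCM mean above that of 2iLIF, by 0.10 ± 0.08 (SE), adjusted p = 0.275. From ES to 2iLIF it fell with a difference of -0.52 ± 0.08 (SE), adjusted p = 3.69e-04, close to the limit, and came to -0.44 without ES replicate 1 and to -0.49 without 2iLIF replicate 2.

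Gnl3, nucleostemin, a nucleolar GTPase known for its high level in stem cells, measured 73.2, 123 and 117 FPKM in ES, 55.1, 94.4 and 94.4 FPKM in 2iLIF and 78.5, 44.2 and 76.9 FPKM in EPSCM. The library that stood apart was the lowest in each medium, and ES replicate 1 lay among the EPSCM libraries. The difference in EPSCM against ES was -0.65 ± 0.30 (SE), adjusted p = 0.0783, and it did not pass. Without ES replicate 1 it was -0.89 and passed, but EPSCM then kept a library that stood apart and ES did not. Without all 3 such libraries the difference was -0.62 and passed, and with them as a covariate it passed too (adjusted p = 1.02e-08).

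How far a factor moved in the libraries that stood apart went with the base composition of its transcript, taken as the longest coding transcript. The measure is the log2 ratio of the library that stood apart to the mean of the close libraries of its medium. Over the 44 factors its Spearman correlation with transcript GC content was 0.77 in ES, 0.75 in 2iLIF and 0.77 in EPSCM, and over 11891 tested genes with a GC value it was 0.69, 0.63 and 0.67. These are descriptions across genes of the same libraries, and genes are not independent replicates. Npm1 was lowest in each medium, at -0.97, -0.92 and -1.05. The highest were Ebna1bp2 at 0.31 in ES, Nhp2 at 0.30 in 2iLIF and Nop2 at 0.32 in EPSCM. About as many factors were lower in the library that stood apart (19, 19 and 20 of 44) as were higher. Each medium held 1 such library, and without all 3 the counts of falls were 39, 22 and 14 in place of 38, 20 and 13. With the 3 as a covariate they were 39, 23 and 15.

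**Figure D4:**
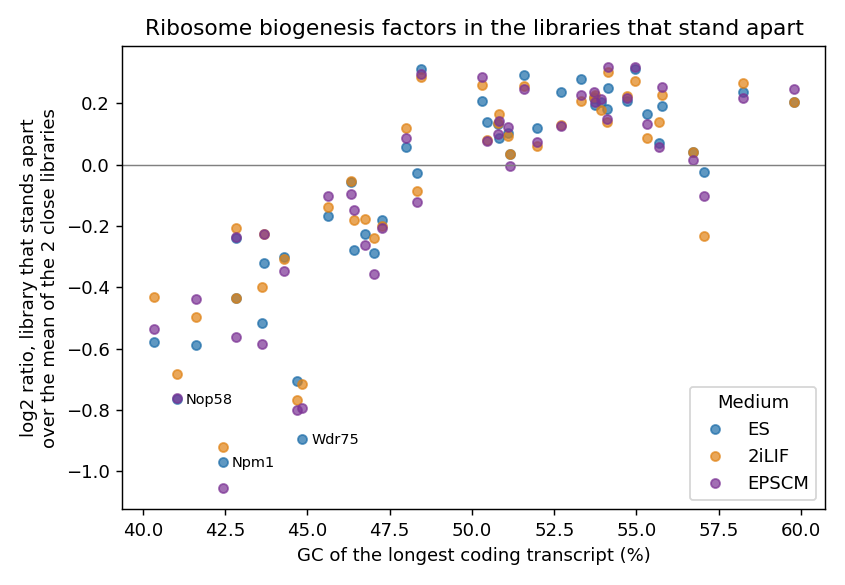
Log2 ratio of the library that stood apart to the mean of the 2 close libraries of the same medium (vertical axis) against transcript GC content in percent (horizontal axis) for the 44 factors, by medium. Factors of low GC content, such as Npm1 at -0.97, -0.92 and -1.05, lie lowest in all 3 media.

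Of the 44 factors, 5 lie on chromosome 1: Ncl, Nop58, Wdr75, Wdr12 and Ddx18. All 5 fell in EPSCM against ES, with a median difference of -1.43. Of 657 tested genes on chromosome 1, 254 fell in that comparison, or 38.7%, beside 20.7% of all tested genes. Tested genes on chromosome 1 as a whole had a median of -0.29 in that comparison, and of -0.28 in 2iLIF against ES, while the median over all tested genes was 0.09 and 0.03. The part of this shift in the results for these 5 genes was not tested. Gnl3 lies on chromosome 14. Leaving out chromosomes 1, 14 and Y, which earlier results on these data had singled out, 33, 18 and 11 of 38 factors fell in the comparisons of EPSCM with ES, EPSCM with 2iLIF and 2iLIF with ES, with medians of -0.85, -0.48 and -0.34. Of the 11249 tested genes so left, 19.3%, 18.6% and 17.7% fell.

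The fall of the factors stood beside that of Myc, which encodes a transcription factor known to activate ribosome biogenesis genes. Myc measured 39.9, 35.5 and 36.7 FPKM in ES, 4.70, 4.33 and 4.41 FPKM in 2iLIF and 0.337, 0.431 and 0.260 FPKM in EPSCM. The media did not overlap, and the difference in EPSCM against ES was -4.84 ± 0.07 (SE), adjusted p = 7.33e-10. It fell with a difference of -2.81 ± 0.07 (SE), adjusted p = 6.18e-09 from ES to 2iLIF and with a difference of -2.03 ± 0.07 (SE), adjusted p = 3.60e-08 from 2iLIF to EPSCM. Myc is low in EPSCM, so the pseudocount sets much of the size: with 0.1 in place of 1 the difference was -6.42 in EPSCM against ES, -3.03 from ES to 2iLIF and -3.39 from 2iLIF to EPSCM. Which of the 2 steps was the larger changed with it. Mycn, its close relative, measured 55.8, 51.5 and 49.1 FPKM in ES, 22.4, 19.1 and 18.8 FPKM in 2iLIF and 19.5, 22.2 and 20.1 FPKM in EPSCM. It fell from ES to 2iLIF with a difference of -1.33 ± 0.08 (SE), adjusted p = 1.30e-06, and EPSCM and 2iLIF overlapped, with a difference of 0.04 ± 0.08 (SE), adjusted p = 0.735. Mycl, the third member, rose from ES to 2iLIF by 0.96 ± 0.07 (SE), adjusted p = 3.14e-06 and differed by -0.09 from 2iLIF to EPSCM.

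Set side by side, the FPKM of Myc, Mycn and Mycl summed to 90.1 to 100.5 in ES libraries, 32.52 to 38.005 in 2iLIF and 28.9 to 32.2 in EPSCM. From ES to 2iLIF the median factor differed by -0.37. From 2iLIF to EPSCM, where the ranges of the sum were 32.52 to 38.005 and 28.9 to 32.2, the median factor differed by -0.51. With 3 media no relation between the MYC genes and the factors can be tested. Of the partners and antagonists of MYC, Max, its dimerization partner, differed by -0.23 in EPSCM against ES, under the limit. Mnt, a repressor that competes for Max, rose from ES to 2iLIF by 0.78 ± 0.06 (SE), adjusted p = 3.47e-06, and Mxd1, of the same kind, rose by 0.61 ± 0.08 (SE), adjusted p = 1.12e-04. Mga, another Max partner, rose by 0.98 ± 0.29 (SE), adjusted p = 0.0144, and did not pass without 2iLIF replicate 2 (0.84) or without 2iLIF replicate 3 (0.88). In EPSCM against 2iLIF, Mxd3 and Mxi1, both repressors, rose by 1.16 ± 0.12 (SE), adjusted p = 3.31e-05 and by 0.67 ± 0.05 (SE), adjusted p = 4.59e-06. Mlx, which pairs with some of these repressors, fell in EPSCM against ES with a difference of -0.77 ± 0.05 (SE), adjusted p = 1.39e-06. Mxd3 had been lower in 2iLIF than in ES, with a difference of -0.98 ± 0.12 (SE), adjusted p = 1.12e-04. At their other step Mnt, Mxd1, Mga and Mxi1 went down, under the limit of size. From 2iLIF to EPSCM Mnt, Mxd1 and Mga differed by -0.45, -0.31 and -0.44, and from ES to 2iLIF Mxi1 differed by -0.34. In EPSCM against ES none of these repressors and Max partners passed both limits. Mnt, Mxd1, Mxi1 and Mxd3 differed there by 0.33, 0.30, 0.32 and 0.19, and Mga by 0.53 (adjusted p = 0.124). Mga passed there with the libraries that stood apart as a covariate. Mxd4 stayed under 2 FPKM on average, and none of its differences passed both limits, but in EPSCM against 2iLIF it passed without EPSCM replicate 3, at 0.55, and with a pseudocount of 0.1 it passed there at 0.68 and in 2iLIF against ES at -0.55.

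MYC and MAX bind the E-box CACGTG, a palindrome, so each site reads the same on both strands. The promoters of 4 factors are shown over the 100 bases before the RefSeq start in GRCm38.p6, with any CACGTG in capitals. Heatr1 and Ddx18 are shown because they had the largest differences, and Nop2 and Rrn3 because they alone held an upstream CACGTG. Both choices were made after the values were seen.
Heatr1: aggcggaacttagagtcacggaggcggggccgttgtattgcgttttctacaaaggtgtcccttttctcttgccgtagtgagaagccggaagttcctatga
Ddx18: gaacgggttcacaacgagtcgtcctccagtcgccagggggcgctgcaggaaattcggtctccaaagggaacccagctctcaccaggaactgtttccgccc
Nop2: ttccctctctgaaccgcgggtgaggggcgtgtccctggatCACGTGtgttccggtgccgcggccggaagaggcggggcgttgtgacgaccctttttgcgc
Rrn3: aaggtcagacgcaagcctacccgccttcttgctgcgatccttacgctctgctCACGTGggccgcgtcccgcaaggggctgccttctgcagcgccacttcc
In that build they lie at chr13:12395275-12395374 (+ strand) for Heatr1, chr1:121567981-121568080 (- strand) for Ddx18, chr6:125131783-125131882 (+ strand) for Nop2 and chr16:13780599-13780698 (+ strand) for Rrn3.

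RefSeq windows from 250 bases before to 50 bases after a start were matched for 40 of the 44 factors. CACGTG lay in 8 of the 40 (20.0%), beside 12.2% of 9689 tested genes with a window and 8.09% of all 27025 genes with a window. In Nop2 its first base was 60 bases before the start, and Rrn3 held it at 215 and 48 bases before. In Ltv1, Utp20, Pes1, Mybbp1a, Tsr1 and Wdr43 it lay only after the start. The 8 factors with the motif had a median difference of -0.79 in EPSCM against ES, and the 32 without it -1.06. In EPSCM against 2iLIF the order was the other way, with -0.60 with the motif and -0.52 without. In 2iLIF against ES the medians were -0.18 with it and -0.44 without. The variant sequence CACGCG, whose reverse complement is CGCGTG, was searched on both strands and lay in 12 of the 40 (30.0%), beside 20.7% of tested genes. With the variant the median in EPSCM against ES was -1.03 and without it -0.96. These matches describe letters in a window and say nothing of binding.

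Other factors of the same pathway, listed apart from the 45, mostly fell in EPSCM against ES. Over 111 of them, 78 fell and none rose in EPSCM against ES, 35 fell and 1 rose in EPSCM against 2iLIF, and 18 fell and none rose in 2iLIF against ES. The falls were 70.3%, 31.5% and 16.2% of the 111, beside 20.7%, 18.6% and 19.1% of all tested genes, so the share in 2iLIF against ES was not above the background. At an unadjusted p under 0.05 in limma, 2 were higher in EPSCM against ES and 5 in 2iLIF against ES. Their medians were -0.67, -0.39 and -0.27. By group, 8 of 15 other RNA polymerase I factors, 8 of 11 snoRNP and assembly factors, 27 of 40 other 40S factors and 35 of 45 other 60S factors fell in EPSCM against ES. In the same order 2, 1, 18 and 14 fell in EPSCM against 2iLIF, and 5, 5, 1 and 7 in 2iLIF against ES. Against 2iLIF the polymerase I and snoRNP shares, 13.3% and 9.09%, were not above the background. In 2iLIF against ES the 40S and 60S shares, 2.5% and 15.6%, were not above it either. Nifk, a nucleolar 60S factor that binds the Ki-67 protein, had the largest fall, -2.27 ± 0.18 (SE), adjusted p = 4.18e-06, and lies on chromosome 1. It was followed by Nufip1, which assembles box C/D snoRNPs and lies on chromosome 14, with -1.97 ± 0.05 (SE), adjusted p = 1.04e-08. Ruvbl1, an ATPase of the same assembly route, fell with a difference of -1.73 ± 0.08 (SE), adjusted p = 1.21e-07. Wdr46 and Imp4, both of the small subunit processome, fell with a difference of -1.67 ± 0.11 (SE), adjusted p = 1.07e-06 and with a difference of -1.60 ± 0.07 (SE), adjusted p = 1.75e-07. Imp4, like Nifk, lies on chromosome 1. Polr2e, a subunit shared by the RNA polymerases, was the gene that rose in EPSCM against 2iLIF, by 0.80 ± 0.12 (SE), adjusted p = 2.39e-04.

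Few genes for the proteins of the ribosome itself passed the test. Of 76 ribosomal protein genes, taken by name, 2 fell and 3 rose in EPSCM against ES, 1 fell and 1 rose in 2iLIF against ES, and none did either in EPSCM against 2iLIF. In EPSCM against 2iLIF 3 were lower and 10 higher at an unadjusted p under 0.05 in limma, beside 4040 and 4642 of all 12330 tested genes. By both limits of a call, 20.7% of all tested genes fell and 28.6% rose in EPSCM against ES. In 2iLIF against ES 19.1% fell and 21.0% rose, and in EPSCM against 2iLIF 18.6% fell and 23.5% rose. The medians of the ribosomal protein genes were 0.09 for EPSCM against ES, 0.08 for EPSCM against 2iLIF and 0.03 for 2iLIF against ES. Ribosomal protein genes held 24.4% to 26.2% of library FPKM in ES, 25.8% to 27.7% in 2iLIF and 26.7% to 28.4% in EPSCM. The difference between assembly factors and ribosomal proteins was not tested.

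**Figure D5:**
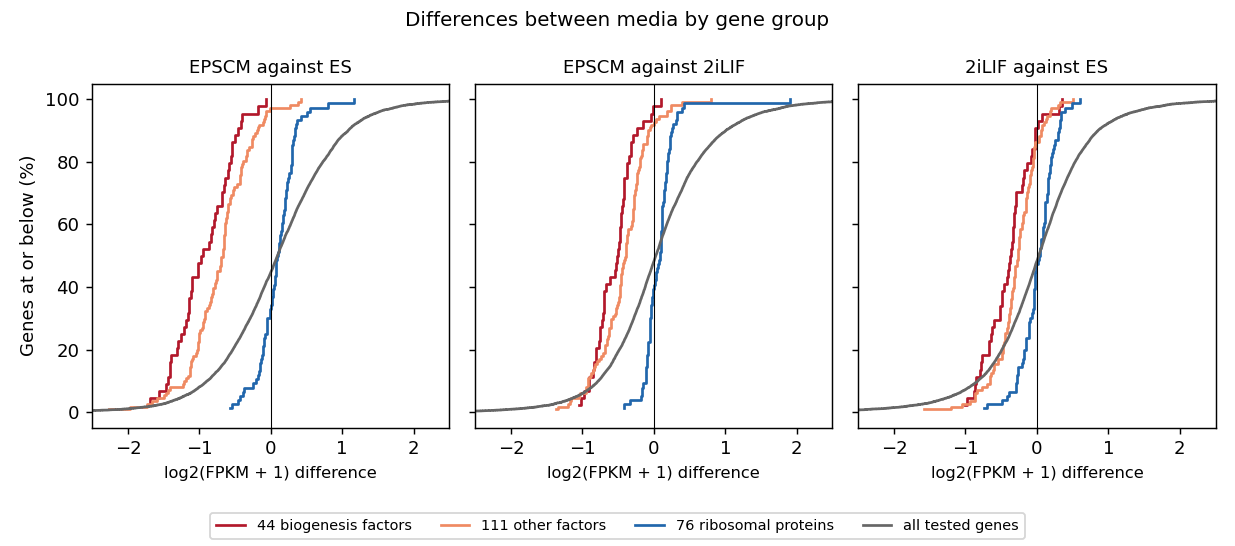
Percent of genes (vertical axis) at or below a given log2(FPKM + 1) difference (horizontal axis) for the 44 factors, 111 other biogenesis factors, 76 ribosomal protein genes and all tested genes in 3 comparisons. The medians of the factors were -0.96, -0.51 and -0.37, and those of the ribosomal proteins 0.09, 0.08 and 0.03.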

How the data were processed

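RNA from 9 libraries of E14 cells in 3 media was sequenced from stranded mRNA libraries, per the labels' protocols. The authors' table gives 1 FPKM value per gene and library, and the submitters' processing notes name STAR, Cuffnorm and mm9. Tool versions, gene models, normalization and strand handling were not given in the sources used here, so reads of overlapping antisense genes may be mixed. Since FPKM is relative to the library total, very abundant genes can move the rest.

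Values were taken as log2(FPKM + 1), a scale that understates changes of low genes. The 12330 genes that reached 1 FPKM in 3 or more libraries were fitted with limma 3.58.1 in R 4.3.3, with a mean per medium, 1 shared spread and a variance trend. The p-values were Benjamini-Hochberg adjusted over all tested genes. Calls required adjusted p below 0.05 and a log2 difference of 0.5 or more in size. The script was tested on simulated data. Replicates were numbered in accession order.

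The members and lists were chosen with earlier results of these data known. Members could be named whatever their values, and for each role those with the largest differences, up to 3, and any that went against the rest are given in full. Of each other list up to 3 called genes per comparison could be named, and not all are printed. The ribosomal protein list, the promoters printed and the alternatives for genes outside the members were chosen after the values were seen. Promoters and chromosomes were taken from RefSeq and GC content from GENCODE, both of GRCm38 and joined on gene symbols. Alternatives changed the pseudocount, filter, scaling, covariate, size limit, libraries and chromosomes.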

Additional observations from a re-analysis of the deposited data

How the results depend on the processing

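No direction of a called value reversed in any alternative run. With a log2 difference of at least 1 in place of 0.5, the falls numbered 21, 2 and 1 of 44 factors in EPSCM against ES, in EPSCM against 2iLIF and in 2iLIF against ES. Under every other alternative these counts stayed within 1.5 times 38, 20 and 13, and no factor was called higher. Quantile normalization gave 31, 18 and 12, the lowest count of the first comparison. Apart from the size limit of 1, factors that lost a call in at least 1 alternative numbered 7, 3 and 1, and those that gained one 1, 9 and 6. In EPSCM against ES the 7 were Fbl, Mrto4, Nop56, Pes1, Polr1c, Tsr1 and Ubtf. Leaving out 1 library brought Nop56, Nop58, Wdr75, Noc4l, Ddx10, Pes1, Wdr12 and Ebna1bp2 past both limits in EPSCM against 2iLIF, and Gar1, Wdr43, Wdr75, Wdr12, Ebna1bp2 and Brix1 in 2iLIF against ES. Where the library left out was one that stood apart, the compared media were left unequal in such libraries. At a limit of 1 the other biogenesis factors gave 27, 7 and 3 falls in place of 78, 35 and 18. The calls among ribosomal proteins ranged from 0 to 4 in any direction and comparison. With the 3 libraries that stood apart, 1 per medium, as a covariate the falls were 39, 23 and 15, and no factor lost a call. Gnl3 gained one in EPSCM against ES, Nop58, Wdr75 and Wdr12 in EPSCM against 2iLIF, and Wdr75 and Wdr12 in 2iLIF against ES. The covariate was found in these same data, so these gains are no independent evidence. No paired analysis was possible because the labels give no replicate numbers that the media share. No read counts were used, so depth sets no limit that can be stated.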

Other observations

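Genes of nucleotide synthesis, which supplies the building blocks of ribosomal RNA, were listed beside the biogenesis factors. Of 18, 7 fell and none rose in EPSCM against ES, 2 fell and 3 rose in EPSCM against 2iLIF, and 9 fell and none rose in 2iLIF against ES, by the same limits in limma. Over all tested genes 20.7% fell and 28.6% rose, 18.6% fell and 23.5% rose, and 19.1% fell and 21.0% rose in the same order, and in EPSCM against 2iLIF neither share of the 18 (11.1% and 16.7%) was above that background. At an unadjusted p under 0.05, 1 was higher in EPSCM against ES and 0 in 2iLIF against ES. The medians were -0.38, -0.09 and -0.46. Atic, which carries out the last steps of purine synthesis and lies on chromosome 1, measured 194, 188 and 184 FPKM in ES, 123, 117 and 114 FPKM in 2iLIF and 66.2, 72.8 and 65.8 FPKM in EPSCM. The media did not overlap, and it fell in EPSCM against ES with a difference of -1.45 ± 0.06 (SE), adjusted p = 7.37e-08. Nme1, a nucleoside diphosphate kinase, fell in EPSCM against ES with a difference of -1.21 ± 0.08 (SE), adjusted p = 1.40e-06, and Umps, which makes UMP, with a difference of -0.94 ± 0.06 (SE), adjusted p = 1.59e-06.

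Prps1 and Prps2, which make the ribose donor PRPP, were lowest in 2iLIF. Prps2 measured 15.2, 23.7 and 20.8 FPKM in ES, 6.18, 9.15 and 8.33 FPKM in 2iLIF and 20.8, 15.5 and 21.2 FPKM in EPSCM. It fell from ES to 2iLIF with a difference of -1.23 ± 0.19 (SE), adjusted p = 4.03e-04, and rose from 2iLIF to EPSCM by 1.19 ± 0.19 (SE), adjusted p = 4.76e-04. Prps1 fell from ES to 2iLIF with a difference of -0.94 ± 0.20 (SE), adjusted p = 0.00274. It rose from 2iLIF to EPSCM by 0.66 ± 0.20 (SE), adjusted p = 0.0169, and did not pass without 2iLIF replicate 1 (0.48), without EPSCM replicate 1 (0.57) or without EPSCM replicate 3 (0.58).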
